A study of Mus with 4 samples.

Results

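The genes described here are those of the PDGF receptors (Pdgfra and Pdgfrb), the PDGF ligands (Pdgfa, Pdgfb, Pdgfc and Pdgfd) and 3 VEGF ligands (Vegfb, Vegfc and Vegfd), compared between vorinostat-treated and solvent-treated PPS-ICBR cells. Members were taken by gene symbol: each probe set, a group of short probes for one transcript, whose only annotated symbol was one of these 9 genes was included. This gave 21 of the 45037 probe sets tested, and all 9 genes were represented among the 18193 genes with a single symbol. The family was chosen by its vorinostat-minus-DMSO log2 differences, which were already known when it was proposed, so the members' levels, their changes and whether they passed the test threshold are given as a description and support no inference. PPS-ICBR is a prostate cancer line of C57Bl6 mice, a single line, kept in DMEM with fetal bovine serum and antibiotics. Cells plated to 60% confluency received DMSO alone (5 µL in 10 mL of medium) or vorinostat at 5 µM in DMSO overnight, so that both groups carried the solvent, and 2 arrays were labelled for each group. Vorinostat inhibits histone deacetylases, the enzymes that remove acetyl groups from histones and other proteins.

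PDGF ligands are dimeric growth factors that bring a pair of receptor tyrosine kinases together, after which the receptors phosphorylate each other and recruit signalling proteins. The alpha receptor binds the A, B and C chains, and the beta receptor binds mainly the B and D chains. In tissues the receptors are best known on fibroblasts, smooth muscle cells and pericytes, while epithelial and tumour cells often supply the ligands. The VEGF ligands share the cystine-knot fold of the PDGF chains and act on related receptors of vascular and lymphatic endothelium.

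The values are deposited log2 levels, 1 per probe set and array, and each change below is the vorinostat mean minus the DMSO mean (n = 2 arrays per group) with the standard error (SE) of limma's fit. Rose, fell and passed refer to an adjusted p under 0.05 in that fit over all probe sets. Whether 2 arrays of 1 group stem from separate cultures is not in the labels, so the p-values rest on a spread that may be technical alone, and the number of arrays limits the precision. A level was called near background where every array of a group lay within 1 log2 unit of the highest value of the Trpn control probe sets on that array, which gave a limit between 3.54 and 3.78. The epithelial markers Krt8, Krt18, Epcam and Cdh1 were all well above it (lowest value 7.65, for Epcam with vorinostat), and none of the 10 measured markers of prostate epithelium was near background. Of 6 endothelial markers 5 were near background on all arrays, among them Pecam1 and Tek. Of 5 measured immune markers Ptprc, Adgre1 and Itgam were near background on all arrays, and Csf1r and Cd3e were not. Cd3e rose from 4.44 and 4.57 to 4.96 and 4.91 (0.43, SE 0.09, adjusted p = 0.0158 by limma), whereas Csf1r did not pass at its brightest probe set. Of 8 fibroblast markers Lum, Thy1 and Fap were near background, whereas Col1a2 lay between 12.4 and 12.7. In bulk RNA of this kind, fewer cells of a type and less RNA per cell cannot be told apart.

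The receptors moved in opposite directions. Pdgfra rose at its brightest probe set (1421917_at) by 1.54 (SE 0.09), a 2.92-fold increase, and Pdgfrb fell at its brightest (1436970_a_at), where the change of -2.49 (SE 0.10) amounts to a 5.62-fold lower level. Of the 9 genes, 2 rose and 5 fell, and over all genes 20.9% rose and 18.9% fell. At the level of probe sets 6 rose and 8 fell (14 of 21), where 16.5% of all probe sets rose, 15.7% fell and 32.2% passed in either direction. Fewer member probe sets passed when 1 array was left out, which leaves 1 array in a group, and fewer probe sets passed over the whole array too. The changes kept their direction in those fits for the genes that lost a call, at -0.67 to -0.48 for Pdgfa and -0.55 to -0.44 for Pdgfd. Among all called probe sets 51.3% were higher with vorinostat, against 87.1% when each array was scaled on 7 reference genes, a scaling that moved the median gene from 0.03 to 0.39 and left 4 member probe sets lower.

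Pdgfra encodes the alpha receptor. Its probe set 1421917_at read 5.38 and 5.44 on the DMSO arrays and 6.89 and 7.02 on the vorinostat arrays. Both vorinostat arrays were thus higher than both DMSO arrays. The other 2 probe sets of the gene were dimmer and rose less: 1438946_at from 4.38 and 4.43 to 5.39 and 5.13 (change 0.86, SE 0.11), and 1421916_at from 3.80 and 3.93, just above the background limit, to 4.57 and 4.56 (change 0.70, SE 0.09). The groups did not overlap at any of the 3. Such separation was found at 62.8% of all probe sets, a share that applies wherever groups are said below not to overlap. The size of the change therefore depended on the probe set, with a range from 0.70 to 1.54, while the direction did not. The rise at 1438946_at no longer passed without DMSO 1 (0.84) or without DMSO 2 (0.88).

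Pdgfrb encodes the beta receptor, which pericytes need for their recruitment to vessels. Its probe set 1436970_a_at read 9.14 and 9.03 with DMSO and 6.52 and 6.67 with vorinostat, without overlap. In size this change exceeded that of 99.4% of all probe sets, against 96.9% for the rise of Pdgfra. The second probe set of Pdgfrb, 1417148_at, read 7.10 and 6.87 with DMSO and 5.39 and 5.81 with vorinostat, a fall of smaller size (-1.39, SE 0.16). It did not pass without DMSO 1, where its change was -1.28. Even with vorinostat, all arrays stayed above the background limit at both probe sets.

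The levels of different probe sets cannot be set against each other. Their changes can, although the size of a change also depended on the probe set. The change of Pdgfra minus that of Pdgfrb was 4.04 on the log2 scale at the brightest probe sets, so that the balance between the signals of the receptors shifted 16.4-fold towards Pdgfra. Over the 6 pairings of a Pdgfra with a Pdgfrb probe set the shift ranged from 2.09 to 4.04. Its spread within a group was at most 0.12 (SD, n = 2) for the brightest pair and at most 0.48 for any pair. With all probe sets of each gene averaged, it was 2.97. This difference was what the receptors were chosen for, and no test of it is given. Of the 6 mural cell markers, which mark the pericytes and smooth muscle where Pdgfrb is best known, Acta2 fell (-1.61, SE 0.08, adjusted p = 0.000237 by limma) and Notch3 rose from near background (0.83, SE 0.12, adjusted p = 0.00512 by limma), while Rgs5 and Myh11 were near background on all arrays. Cspg4 (0.08, SE 0.09) and Des (-0.05, SE 0.12) did not pass, and the median change of the 6 was 0.01. The log2 of their summed linear level, which is almost all Acta2, went from 11.0 on both DMSO arrays to 9.53 and 9.57. Whether the lower Acta2 has a part in the Pdgfrb values was not tested. The summed level of the 8 fibroblast markers, taken the same way, was 13.2 on both DMSO arrays and 12.9 and 13.2 with vorinostat.

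**Figure D1:**
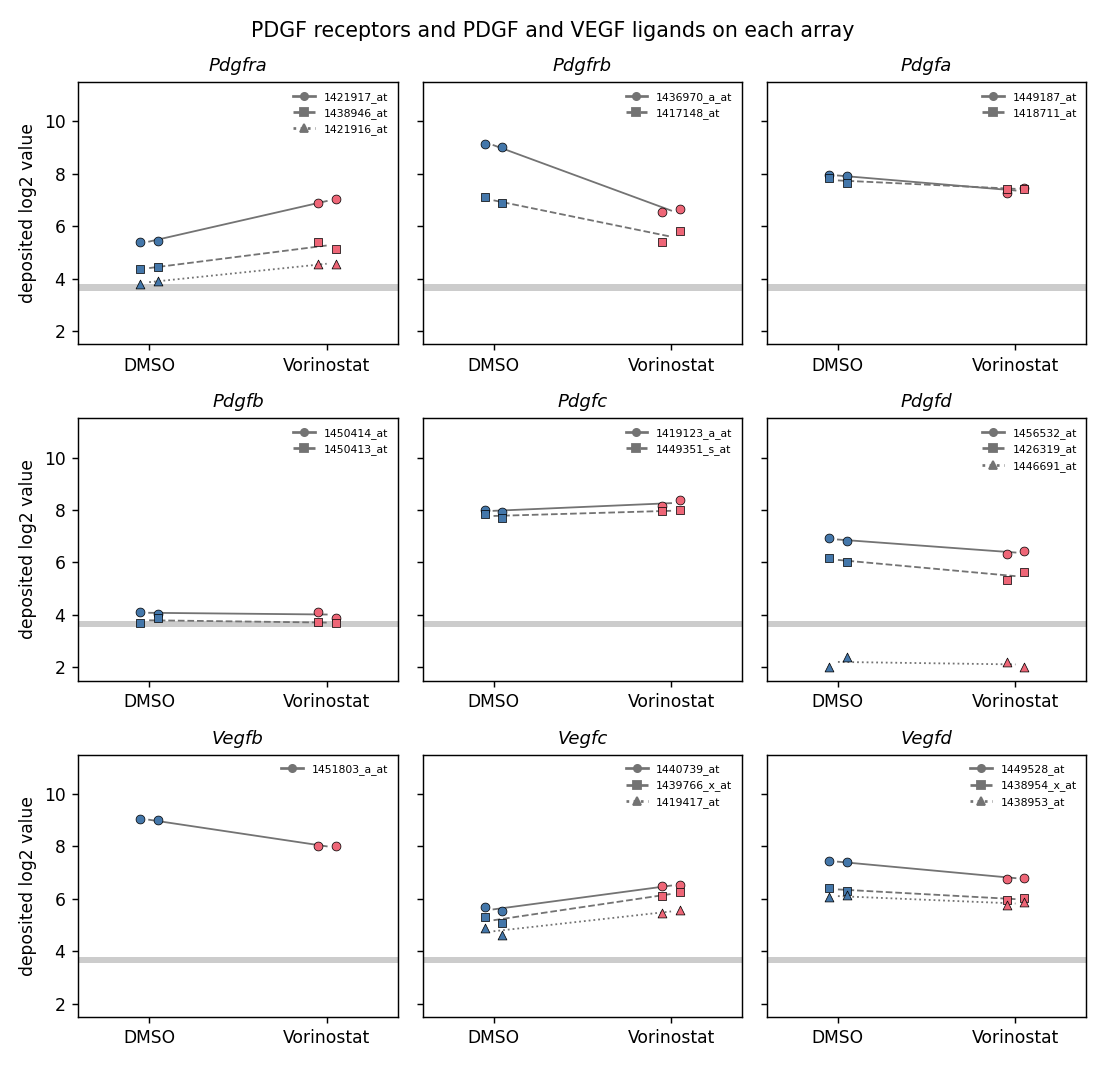
Deposited log2 value (vertical axis) of each probe set of the 9 genes on the 2 DMSO arrays (blue) and the 2 vorinostat arrays (red). Each symbol shape is 1 probe set, points are single arrays, lines join group means, and the grey band spans the background limits of the 4 arrays (3.54 to 3.78). Pdgfra and Vegfc go up and Pdgfrb and Vegfb go down at all their probe sets, and Pdgfb lies at the band.

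The 4 PDGF ligands changed less than the receptors, and none of their 9 probe sets moved by as much as 2-fold (range -0.62 to 0.29). Pdgfa, the A chain, a ligand of the alpha receptor, read 7.94 and 7.92 with DMSO and 7.27 and 7.45 with vorinostat at 1449187_at, and fell (-0.57, SE 0.10). The second Pdgfa probe set, 1418711_at, read 7.83 and 7.66 with DMSO and 7.41 and 7.43 with vorinostat. It did not pass in the fit (-0.32, SE 0.09), although its groups did not overlap, and 62.8% of all probe sets share that separation. It passed as lower with an intensity trend in the variance, with median centring (-0.38) and when dimmer probe sets than the median were left out, and was at 0.04 with reference-gene scaling. The fall at 1449187_at was not called without DMSO 1 (-0.56), DMSO 2 (-0.58) or Vorinostat 1 (-0.48), nor with arrays scaled on the reference genes (-0.21).

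Pdgfb, the B chain, binds both receptors and is the ligand by which endothelium attracts pericytes. Its brighter probe set, 1450414_at, lay little above the background limit, at 4.11 and 4.05 with DMSO and 4.13 and 3.90 with vorinostat. The groups overlapped, and the change was -0.07 (SE 0.11). At 1450413_at it read 3.70 and 3.90 with DMSO and 3.72 and 3.69 with vorinostat (change -0.09, SE 0.10), again with overlap. These probe sets lay close to the background limit, and low signal limits what can be said of a fall. From a like level, a fall was still called at Ccbe1 1439327_at (3.92 and 3.76 with DMSO, change -0.55). A rise from such a level was seen at Pdgfra 1421916_at (3.80 and 3.93 with DMSO, change 0.70). Neither Pdgfb probe set rose or fell, and the sign of both values turned with the scaling.

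Pdgfc, the C chain, is secreted in a latent form that proteases activate by removing its CUB domain. It read 8.01 and 7.93 with DMSO and 8.15 and 8.37 with vorinostat at 1419123_a_at (change 0.29, SE 0.10). At 1449351_s_at the values were 7.84 and 7.71 with DMSO and 7.94 and 7.996 with vorinostat (change 0.20, SE 0.09). Neither probe set passed, although the vorinostat arrays were the higher ones at both. On the deposited scale Pdgfc was thus the 1 PDGF ligand whose values were higher with vorinostat, while with reference-gene scaling the values of Pdgfb were higher too. The probe set 1419123_a_at did pass with an intensity trend in the variance, when dimmer probe sets than the median were left out, and with reference-gene scaling (0.65), where 1449351_s_at passed too (0.56).

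Pdgfd, the D chain, is likewise latent until cleaved and acts mainly through the beta receptor. It fell at 1456532_at, from 6.92 and 6.83 to 6.32 and 6.44 (-0.50, SE 0.09), and at 1426319_at, from 6.17 and 6.02 to 5.33 and 5.62 (-0.62, SE 0.13). The groups did not overlap at either. The remaining probe set of Pdgfd, 1446691_at, was near background on all arrays (2.03 to 2.39) and carries no information on a change. The fall at 1456532_at was not called without DMSO 1 (-0.45), DMSO 2 (-0.54) or Vorinostat 1 (-0.44), nor with reference-gene scaling (-0.14), and the same settings, among others, ended the call at 1426319_at.

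The 3 VEGF ligands divided by direction. Vegfb, a ligand of the receptor Flt1 that has been studied in cardiac and fat tissue, fell 2.02-fold, and Vegfc, a main growth factor of lymphatic vessels, rose 1.87-fold. Vegfd, a relative of Vegfc that also binds Flt4, fell 1.54-fold. These calls held under each of the 10 alternative settings, 1 of which averages the probe sets of a gene.

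Vegfb has a single probe set, 1451803_a_at, which read 9.03 and 8.998 with DMSO and 7.99 and 8.01 with vorinostat (-1.01, SE 0.08). Its arrays within a group differed by at most 0.03. Vegfc read 5.67 and 5.52 with DMSO and 6.50 and 6.51 with vorinostat at 1440739_at (0.91, SE 0.09). The other Vegfc probe sets rose as well, 1439766_x_at from 5.29 and 5.07 to 6.09 and 6.27 (1.00, SE 0.12) and 1419417_at from 4.90 and 4.63 to 5.45 and 5.58 (0.76, SE 0.12). No Vegfc probe set overlapped between groups, and their changes lay within 0.76 to 1.00, closer to each other than those of either receptor. The type of 1439766_x_at is one that can contain probes matching other transcripts. The rise at 1419417_at was not called without Vorinostat 1 (0.82) or Vorinostat 2 (0.69).

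Vegfd read 7.43 and 7.40 with DMSO and 6.77 and 6.81 with vorinostat at 1449528_at (-0.63, SE 0.08). The probe set 1438954_x_at fell from 6.41 and 6.30 to 5.94 and 6.03 (-0.37, SE 0.09), and this call was lost without each of the 4 arrays in turn (-0.43 to -0.31) and under reference-gene scaling (-0.01). The last, 1438953_at, went from 6.06 and 6.14 to 5.75 and 5.89 and did not pass (-0.28, SE 0.09). All 3 Vegfd probe sets were lower on both vorinostat arrays on the deposited scale, where the brightest had the largest change, but under reference-gene scaling 1438953_at was at 0.08. That probe set passed as lower with median centring (-0.34) and when dimmer probe sets than the median were left out.

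**Figure D2:**
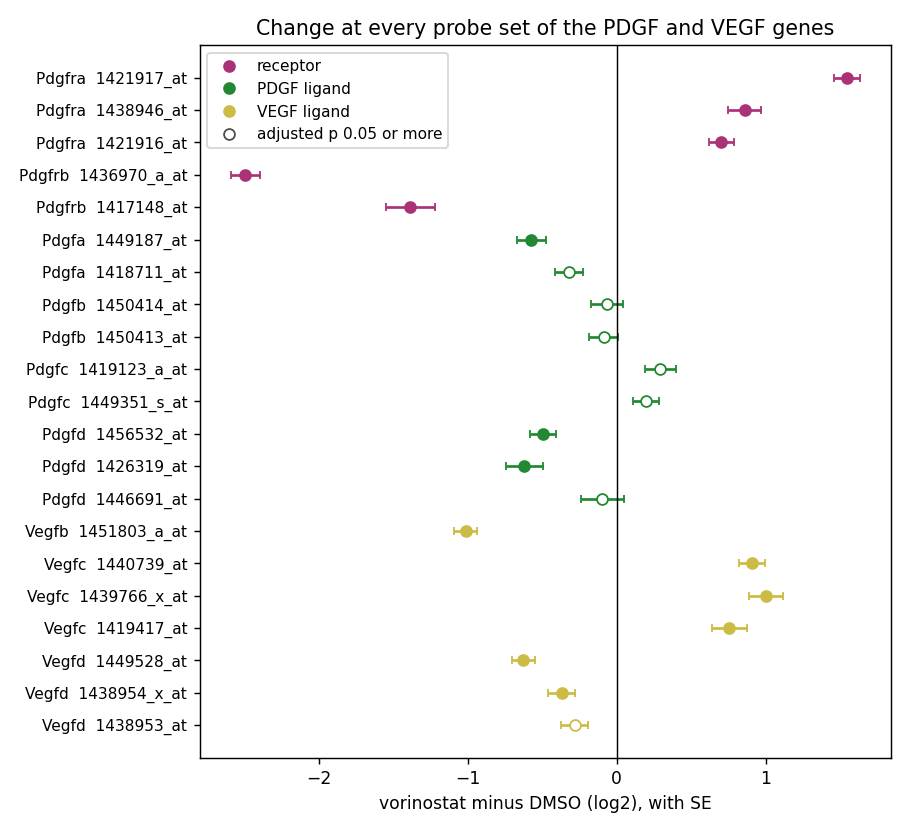
Vorinostat minus DMSO on the log2 scale (horizontal axis) for each of the 21 probe sets, with bars of 1 SE. Filled points passed an adjusted p of 0.05 and open points did not, and the colours mark receptors, PDGF ligands and VEGF ligands. The widest separation is that between Pdgfra (0.70 to 1.54) and Pdgfrb (-2.49 and -1.39).

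Other genes of the pathway were taken from lists of receptors, ligand-processing proteins, signalling proteins and dampening proteins, each gene by its brightest probe set. Over all genes 39.9% passed in either direction. Of 10 related receptors and ligands, 1 rose, 1 fell and 8 did not pass, with a median change of 0.20 against 0.03 over all genes. Both that passed were neuropilins, co-receptors that bind VEGF ligands and semaphorins and help VEGF receptors to signal. Nrp1 rose from 9.14 and 8.98 to 9.84 and 9.83 (0.77, SE 0.09, adjusted p = 0.00241 by limma). Nrp2, a partner of Flt4 in the response to Vegfc, fell from 9.57 and 9.38 to 8.70 and 9.09 (-0.58, SE 0.15, adjusted p = 0.0387 by limma). Of the 4 probe sets of each neuropilin, 3 passed, all in the direction of the brightest. The fall of Nrp2 was not called without DMSO 1 (adjusted p = 0.23), DMSO 2 (0.133) or Vorinostat 1 (0.155), or with reference-gene scaling (0.209).

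The VEGF receptors themselves were dim in these cells and did not pass. Flt1, a receptor of Vegfb, lay between 5.02 and 5.39 (change 0.23, SE 0.10), Kdr, the main receptor of vascular endothelium, between 4.01 and 4.39 (0.25, SE 0.10), and Flt4, the lymphatic receptor of Vegfc and Vegfd, between 4.43 and 4.84 (0.24, SE 0.11). With arrays scaled on the reference genes all 3 passed as higher (0.59, 0.61 and 0.60). Pgf, a further ligand of Flt1, changed by -0.27 (SE 0.12) and was at 0.09 under that scaling, and Pdgfrl, a receptor-like protein without a kinase domain, changed by 0.28 (SE 0.13). Of the kinases most like the PDGF receptors, Kit was near background on all arrays (2.64 to 2.96), Flt3 changed by 0.17 (SE 0.11) and Csf1r by 0.18 (SE 0.10). A dimmer Csf1r probe set, 1419873_s_at, whose suffix marks probes shared by transcripts, rose by 0.52 (SE 0.09, adjusted p = 0.00829 by limma).

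Of these kinase genes, Kit, Kdr and Csf1r are also chromosomal neighbours of a PDGF receptor gene. In the RefSeq table of assembly GRCm38.p6, Pdgfra lies between Gsx2 and Kit among protein-coding genes, with Kdr next after Kit, and Csf1r directly follows Pdgfrb. Gsx2, a homeobox gene, was near background on all arrays (2.51 to 2.67), as was Kit (2.64 to 2.96). Neither showed a rise like that of Pdgfra on the deposited scale (changes 0.11, SE 0.08, and -0.22, SE 0.09). Low signal limits what can be said of a fall at such levels. One was still called at a near-background probe set of Sos1, 1421886_at (2.87 and 2.88 with DMSO, change -0.41). Chic2, which lies beyond Gsx2 and was named after its value was seen, rose from 9.75 and 9.72 to 10.13 and 10.08 (0.37, adjusted p = 0.0176 by limma). The genes 2 places from Pdgfrb, added in the same way, did not pass. They were Cdx1 (-0.12, SE 0.19, near background) and Hmgxb3 (-0.24, SE 0.08). At its brightest probe set Csf1r did not pass, and the dimmer one given above rose. Under reference-gene scaling Gsx2 (0.47) and Csf1r (0.54) passed as higher.

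Proteins that process or bind PDGF and VEGF ligands included the largest change of all the pathway genes examined. Of 17 genes, 4 rose, 3 fell and 10 did not pass. Plat encodes tissue plasminogen activator, the protease known to cleave the CUB domain from the latent C chain. It read 7.07 and 6.97 with DMSO and 11.30 and 10.95 with vorinostat (4.11, SE 0.14, adjusted p = 0.00016 by limma). A second, dimmer Plat probe set rose by 0.76 (SE 0.10), so the size rests on the probe set. Plau, the urokinase that activates the D chain, rose from 4.16 and 4.46 to 5.69 and 5.49 (1.28, SE 0.13, adjusted p = 0.0016 by limma), and its second probe set by 1.14. The lysosomal protease Ctsd, which can also cleave VEGF ligands, rose by 0.91 (SE 0.08, adjusted p = 0.00103 by limma), and the proprotein convertase Pcsk7 rose by 0.68 (SE 0.08).

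The genes that fell were Ccbe1, Sparc and Furin. Ccbe1 is the cofactor with which Vegfc is matured outside the cell, and it read 7.19 and 7.02 with DMSO and 6.24 and 6.52 with vorinostat (-0.72, SE 0.13, adjusted p = 0.00934 by limma). Its partner protease gene Adamts3 was near background on all arrays. The matrix protein Sparc, which binds PDGF, fell (-0.61, SE 0.10, adjusted p = 0.00921 by limma), as did Furin, a convertase of PDGF and VEGF precursors (-0.48, SE 0.09, adjusted p = 0.0124 by limma). The genes that fell in this list numbered 0 without DMSO 1, 1 without DMSO 2, 0 without Vorinostat 1 and 1 with reference-gene scaling, whereas 4 rose in each case of a left-out array. Under that scaling 10 rose.

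Of 31 signalling proteins that act below these receptors, 10 rose, 5 fell and 16 did not pass, with a median change of 0.06. The Src-family kinase Fyn, which binds activated PDGF receptors, rose from 7.08 and 6.92 to 8.16 and 8.14 (1.15, SE 0.09, adjusted p = 0.000714 by limma), and by 1.87 at a second probe set. Stat3, a transcription factor downstream of many receptors, rose by 1.01 (SE 0.08, adjusted p = 0.000792 by limma) and the adaptor Nck2 by 0.75 (SE 0.08, adjusted p = 0.00172 by limma). The adaptors Grb2 (0.63), Shc1 (0.70) and Gab1 (0.50) rose as well. Among the falls, Srf, the transcription factor of serum- and PDGF-induced genes, changed by -0.87 (SE 0.08, adjusted p = 0.00112 by limma), the Ras exchange factor Sos1 by -0.86 (SE 0.08, adjusted p = 0.00112 by limma) and the kinase Akt1 by -0.86 (SE 0.08, adjusted p = 0.00132 by limma). Src itself fell (-0.67, SE 0.09), opposite to Fyn. A second bright probe set moved likewise for Stat3 (1.20) and Akt1 (-1.04). Dim probe sets did not pass for Stat3 (0.20 and -0.11) and Akt1 (0.15 and 0.14), nor did the further ones of Nck2 (0.32, and 0.07 near background). With all probe sets averaged, the change was 0.57 for Stat3, 0.38 for Nck2 and -0.40 for Akt1. The genes that fell numbered 3 without DMSO 2, against 8 with an intensity trend, 9 with median centring and 10 when dimmer probe sets than the median were left out, and 18 rose under reference-gene scaling.

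Of 14 proteins that dampen receptor signals, 7 rose, 2 fell and 5 did not pass, with a median change of 0.27. The adaptor Grb14 rose by 1.41 (SE 0.18, adjusted p = 0.00296 by limma), the ubiquitin ligase Cblb by 1.27 (SE 0.18, adjusted p = 0.00483 by limma) and Ptpn1, a phosphatase of PDGF and other receptors, by 0.94 (SE 0.10, adjusted p = 0.00165 by limma). The other Grb14 probe set, near background, did not pass (-0.20), and the average for that gene was 0.61. Ptpn2, its closest relative and a phosphatase of the beta receptor, fell (-0.87, SE 0.09, adjusted p = 0.00179 by limma), and so did Socs1 (-0.32, SE 0.08, adjusted p = 0.0265 by limma), which turned to 0.03 under reference-gene scaling. A second bright probe set of Ptpn2 fell by 0.84, but its dim probe sets were higher (0.30, which did not pass, and 0.28, near background, which did), and their average for the gene was -0.28. Some of these calls were lost when 1 array was left out, while the changes kept their direction. Grb14 did not pass without DMSO 1 (change 1.47) or DMSO 2 (1.36). Cblb did not pass without Vorinostat 1 or Vorinostat 2 (1.02 to 1.52 over the 4 such fits), and Socs1 without any 1 of the 4 arrays (-0.33 to -0.32). Fewer of these genes passed in each such fit, and fewer probe sets passed over the whole array too.

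**Figure D3:**
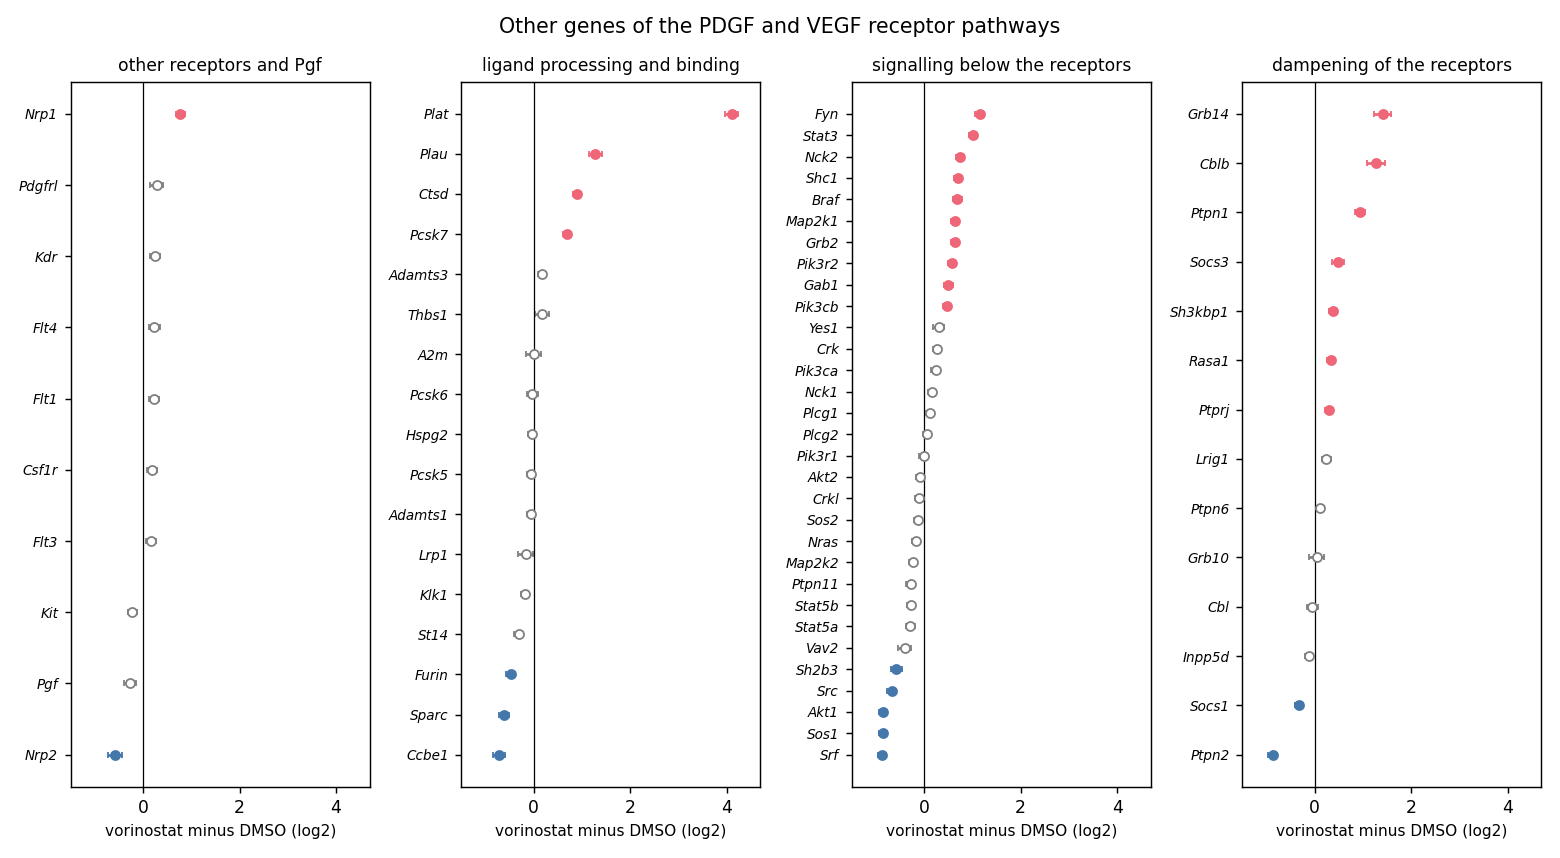
Vorinostat minus DMSO on the log2 scale (horizontal axis, with bars of 1 SE) for the brightest probe set of each pathway gene in the 4 lists. Red points passed as higher, blue points as lower and open grey points did not pass. Plat (4.11) stands farthest from 0, and in the list of related receptors Nrp1 (0.77) and Nrp2 (-0.58) alone passed.

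The genes whose 4 array values, each taken from the gene's own mean, lay nearest to those of a receptor were found among 16314 genes by Euclidean distance. For Pdgfra they were Dkk3 (distance 0.05 log2 units, change 1.55), Idnk (0.06, change 1.49) and H2-D1 (0.08, change 1.60). For Pdgfrb they were Top2a (0.07, change -2.50), Bcat1 (0.08, change -2.44) and Clcf1 (0.09, change -2.43). With 4 arrays in 2 groups such likeness reflects mainly an equal size of change, and it is given as a description.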

How the data were processed

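Expression was measured on 4 Affymetrix mouse arrays. The authors deposited a log2 value for every probe set on each array. Per the submitters' processing notes, the Transcriptome Analysis Console and RMA were used, without stated versions. RMA by definition equalises the distributions of the arrays, so a shift common to the whole transcriptome is invisible. The build behind the probe annotation: not given in the sources used here. The RefSeq gene table (assembly GRCm38.p6) served for names and for which genes neighbour each other, and no coordinates are printed.

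Of 45101 probe sets, 64 controls were left out. The platform annotation gave 1 symbol to 34945 of the remaining 45037, several to 932 and none to 9160. The RefSeq table held 34741 of those with 1 symbol. Each gene was represented by its probe set of highest mean. The groups were compared with limma 3.58.1 (R 4.3.3; lmFit, eBayes, two-sided, Benjamini-Hochberg adjustment over all 45037 probe sets), with no filter. In data simulated with independent normal noise of the fitted variances and 100 changed probe sets per fold size, the fit recovered 98% of 2-fold changes. There were 8 false calls. Since far more probe sets passed in the real arrays (32.2%), this checks the working of the fit and not its power there. Of the genes listed, those without a single-symbol probe set in the table were not analysed here.

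The members and lists were chosen with earlier results of these data known. Named genes were all members and related receptors, in each other pathway list up to 3 rises and 3 falls of largest size with separate groups, the nearest profiles and the neighbours of the receptors. Pcsk7, Grb2, Shc1, Gab1, Src and the cell markers were named after their values were seen. The background margin was also chosen with the data known.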

Additional observations from a re-analysis of the deposited data

How the results depend on the processing

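Each result was recomputed under 10 alternatives. Over named genes and member probe sets, 453 of 530 alternative values kept direction and side of the threshold, 49 lost the call, 17 gained it and 11 changed sign. The rise of Pdgfra (1.04 to 1.90), the fall of Pdgfrb (-2.57 to -1.94) and the calls of Vegfb, Vegfc and Vegfd at the brightest probe sets held in all 10. Signs turned under reference-gene scaling for Pdgfb (0.29, and 0.27 at 1450413_at), Kit (0.14), Pgf (0.086), Socs1 (0.035), Pdgfa 1418711_at (0.037), Vegfd 1438953_at (0.077) and Pdgfd 1446691_at (0.26). They also turned for single left-out arrays at Pdgfb (-0.18 to 0.049), Pdgfb 1450413_at (-0.19 to 0.011) and Pdgfd 1446691_at (-0.28 to 0.088). All of these but Socs1 had not passed to begin with, and the cause was not tested.

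The reference genes changed by -0.36 on average, largely through Gusb (-1.42) and Polr2a (-0.75), which both passed as lower in the main fit. Under that scaling 26873 of all probe sets were higher and 3988 lower, 4 member probe sets and 3 member genes were lower, 7 related receptors were higher and 0 lower, 10 processing genes were higher and 1 lower, 18 signalling genes were higher and 1 dampening gene lower. Signalling genes that fell numbered 8 with an intensity trend, 9 with median centring, 10 among probe sets above the median level and 8 with all probe sets of a gene averaged. That averaging gave 2 related receptors higher, as Csf1r was gained through a dimmer probe set with a larger change. It gave 2.97 for the change of Pdgfra minus that of Pdgfrb, whose dimmer probe sets changed less.

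Leaving out single arrays gave 3778 to 4284 probe sets higher and 3900 to 4575 lower. Member probe sets that fell numbered 3 to 7 and member genes that fell 3 to 5, related receptors that fell 0 to 1, processing genes that fell 0 to 2, signalling genes that fell 3 to 4, and dampening genes 2 to 3 higher and 1 lower. A fit with 1 array in a group assumes that this array varies like the other group.

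The replicate number as a block gave 0 related receptors lower, and 3 dampening genes higher and 1 lower. It also ended the calls of Nrp2 (adjusted p = 0.106), Socs1 (0.0625), Pdgfd 1426319_at (0.0607) and Vegfd 1438954_x_at (0.0737), and those of no other named gene or member probe set. Same-numbered arrays did not deviate together (r = -0.06 over probe sets), so the numbers are not taken to pair the samples. Low signal limits what can be said of Kit and Adamts3, which were near background, and of Pdgfb, which lay just above that limit.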

Other observations

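Fibroblast and epithelial markers moved in both directions. Of 8 fibroblast markers, the proteoglycan Dcn rose from 9.24 and 9.13 to 10.34 and 10.55 (1.26, SE 0.10, adjusted p = 0.000802 by limma) and the collagen Col3a1 fell from 11.17 and 11.16 to 9.93 and 10.61 (-0.89, SE 0.22, adjusted p = 0.0322 by limma), while Col1a2 changed by -0.21 (SE 0.09) and did not pass. Of 10 prostate epithelium markers, 3 rose and 1 fell. Among the keratins, Krt8 fell (-1.05, SE 0.12) and Krt19 rose (1.10, SE 0.10), whereas Krt18 changed by -0.07 (SE 0.08). These markers were named after their values were seen.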
